A study of Mus musculus with 36 samples.

Results

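These data ask what remains changed in the heart 12 weeks after a toxic repeat RNA was switched off, and whether ventricle and atria agree on it. The comparison takes 12 of the 36 RNA-Seq libraries of the series, chosen by their labels alone: 3 no dox and 3 on/off dox libraries from the left ventricle, and 3 no dox and 3 on/off dox libraries from the atria. All mice were CUG960, carrying the TREDT960I transgene (Hom), in which a tetracycline-responsive promoter drives part of human DMPK with 960 CTG repeats, interrupted in places, and the MHCrtTA transgene (Hem), in which the α-myosin heavy chain promoter limits the transactivator to cardiomyocytes. The no dox mice carried both transgenes and never received doxycycline. The on/off dox mice received it in chow from postnatal day 1, at first through the nursing dams, until 9 weeks of age, and were collected with the no dox mice at 21 weeks. The 6 on dox libraries, from mice kept on doxycycline to 21 weeks, are given only beside these values, since their difference from no dox uses the same no dox libraries. Earlier exposure to doxycycline and earlier exposure to the repeat RNA cannot be told apart in this design.

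Myotonic dystrophy type 1 is caused by an expanded CTG repeat in DMPK. Its RNA, which holds long CUG repeats, binds the muscleblind-like (MBNL) splicing factors and keeps them from their other targets, so that many transcripts return to fetal splicing patterns, and in the heart conduction defects and arrhythmia are the best known consequences. Because the RNA acts as long as it is made, a model in which it can be turned off shows which changes persist without it.

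The 12 libraries held between 55.03 M and 78.0 M expected counts (median 70.2 M), and 19231 of 55291 gene symbols passed the filter on low counts. The tissue labels were checked against chamber markers. Myl3, a ventricular myosin light chain, was at 3736 to 4247 CPM (counts relative to the library total, scaled between libraries by TMM) in the ventricle and at 5.33 to 93.7 CPM in the atria. Nppa, the atrial natriuretic peptide, was at 12380 to 14240 CPM in the atria and at 42.6 to 330 CPM in the ventricle. Replicates 1 and 2 of each group come from a first set of library numbers and replicate 3 from a second, so that the sets are balanced between the groups. Xist and the Y-linked genes mark replicate 3 as the female of each group. The study's supplement lists ventricle and atria of the same animals in each cohort, so the chambers are not independent, and the edgeR fit of all libraries has no term for the animal. Which library is which animal is not in the labels, but across 13046 genes the ventricle and atria libraries that share a cohort and a number deviated together from their group means (r between 0.30 and 0.59). Library set and sex, which set replicate 3 apart, enter these values. The difference between replicates 1 and 2 alone had an r between the chambers of 0.26 in no dox and 0.11 in on/off dox mice. Transgene RNA was not analysed here.

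Few genes differed between on/off dox and no dox mice at the thresholds used: a Benjamini-Hochberg adjusted p below 0.05 over all genes tested by edgeR's quasi-likelihood test, and at least a 1.5-fold difference. In the ventricle 6 genes were called (0.0312% of those tested), and relative to no dox 3 of them (0.0156%) were higher in on/off dox and 3 (0.0156%) lower. Only 2 genes were called in the atria (0.0104%), 1 in each direction (0.0052% each). By the same test the on dox ventricles differed from no dox in 1461 genes (7.6%), 794 higher (4.13%) and 667 lower (3.47%), and the on dox atria in 1005 (5.23%), 461 higher (2.4%) and 544 lower (2.83%). At an unadjusted p below 0.05 there were 860 genes higher (4.47%) and 726 lower (3.78%) in the on/off dox ventricle, together 8.25%, and 439 higher (2.28%) and 468 lower (2.43%) in the on/off dox atria, together 4.72%. On/off dox and no dox libraries did not overlap for 14.8% of all ventricular and 12.6% of all atrial genes tested. With the replicate number as a block, 10 ventricular genes were called, 5 in each direction. Within the first library set, with 2 libraries in each group, 12 ventricular and 23 atrial genes were called, and the second set has 1 library in each group and gives no test. Leaving out no dox replicate 2 reduced the ventricular calls to 1 gene, Syn2.

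Syn2 encodes synapsin II, a phosphoprotein of synaptic vesicles, and had the smallest adjusted p in the ventricle. It was at 5.08, 6.99 and 3.73 CPM in the no dox ventricles, at 21.4, 15.6 and 12.4 CPM in the on/off dox ventricles and at 52.8, 54.9 and 52.6 CPM in the on dox ventricles. Every on/off dox ventricle lay above every no dox ventricle and below every on dox ventricle, and the rise over no dox was 3.11-fold (log2 fold change 1.64 ± 0.24 (SE), adjusted p = 0.00482 by edgeR). In the atria it was at 48.1, 46.8 and 38.0 CPM in no dox, 57.1, 56.5 and 46.8 CPM in on/off dox and 85.9, 78.7 and 64.6 CPM in on dox mice. There the on/off dox and no dox libraries overlapped, and the log2 fold change of 0.27 ± 0.22 (SE) did not pass. The ventricular call was kept in all 6 settings that each leave out a library. It was lost in 3 of 19 alternative settings, the fits of only the 12 no dox and on/off dox, the 18 ventricular or the 6 compared libraries. On GRCm38, Syn2 spans chr6:115134902-115282006, and Timp4 lies within it on the opposite strand. Its mean level was 23.3 CPM in no dox and 15.8 CPM in on/off dox ventricles, which did not pass.

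Aass (chr6:23072173-23132986), the mitochondrial enzyme that starts lysine breakdown, was at 5.17, 2.80 and 2.23 CPM in the no dox ventricles and at 16.8, 12.5 and 6.69 CPM in the on/off dox ventricles, against 23.4, 29.5 and 35.8 CPM in the on dox ventricles. The groups did not overlap, and Aass rose 3.52-fold over no dox (log2 fold change 1.82 ± 0.28 (SE), edgeR adjusted p = 0.00748). In the atria it was at 23.4, 22.7 and 19.6 CPM in no dox and at 34.7, 37.2 and 26.2 CPM in on/off dox mice. The atrial groups did not overlap either, but the log2 fold change of 0.58 ± 0.25 (SE) did not pass after adjustment (adjusted p = 0.982). The ventricular call of Aass was lost in 4 of 19 alternative settings. These were the same fits of fewer libraries as for Syn2, and the removal of no dox replicate 2.

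Pdlim4 (chr11:54054928-54069014), a PDZ and LIM domain protein of the actin cytoskeleton, narrowly passed the fold threshold in the ventricle. It was at 9.09, 8.20 and 7.75 CPM in no dox, at 12.0, 13.2 and 12.5 CPM in on/off dox and at 12.6, 13.3 and 10.4 CPM in on dox ventricles. It rose 1.51-fold over no dox (edgeR adjusted p = 0.0198), and on/off dox and on dox ventricles overlapped. In the atria the log2 fold change was 0.33 ± 0.10 (SE), with 45.7, 37.4 and 49.4 CPM in no dox and 55.7, 61.0 and 49.5 CPM in on/off dox mice. Pdlim4 missed a threshold in 11 of 19 alternative settings, 4 of them the removal of a single library.

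Lad1 (chr1:135818598-135833342), or ladinin, is a protein of anchoring filaments in basement membranes. Among the lower ventricular calls, only Lad1 shared no 31-base stretch with the transcripts of another annotated gene. It was at 11.8, 9.79 and 9.13 CPM in no dox, at 3.17, 3.88 and 4.27 CPM in on/off dox and at 1.01, 1.83 and 1.57 CPM in on dox ventricles. The 3 cohorts did not overlap, and the level in on/off dox was 2.72-fold below no dox (log2 fold change -1.44 ± 0.26 (SE), edgeR adjusted p = 0.0198). In the atria it was at 38.0, 37.4 and 34.6 CPM in no dox, 28.6, 35.6 and 28.9 CPM in on/off dox and 7.51, 8.06 and 6.24 CPM in on dox mice. The atrial no dox and on/off dox libraries overlapped, and the log2 fold change of -0.24 ± 0.24 (SE) did not pass. The ventricular call was lost without any 1 of 5 of the 6 libraries compared, the exception being no dox replicate 3.

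**Figure D1:**
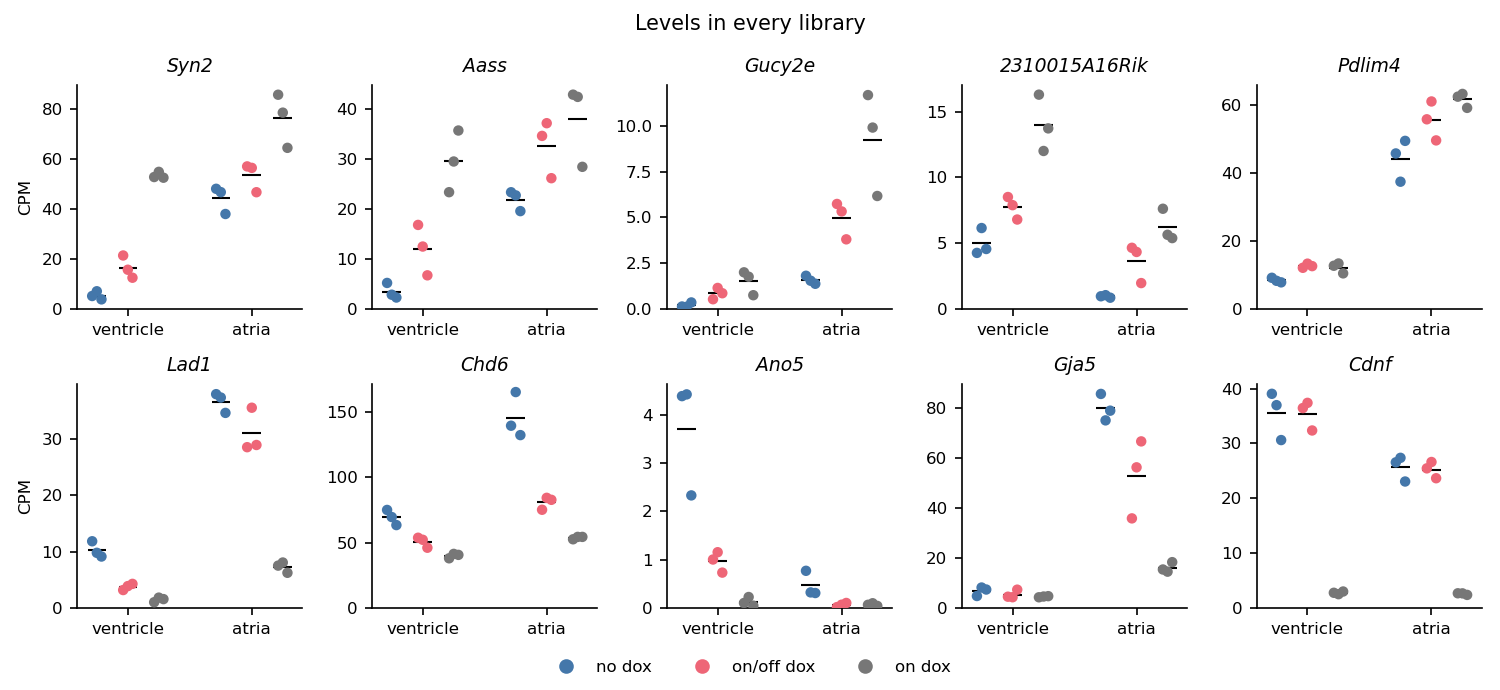
Level (CPM, linear axes from 0) of 10 genes in every no dox, on/off dox and on dox library of ventricle and atria, with 1 point per library and a black line at the mean of the 3. Syn2, Aass and Lad1 show the clearest ventricular difference between on/off dox and no dox, Chd6 and 2310015A16Rik the clearest atrial one, and Cdnf in on/off dox lies among the no dox libraries.

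Chd6 (chr2:160946978-161109075) encodes a chromodomain helicase that remodels chromatin, and it was the lower of the atrial calls. In the atria it was at 140, 166 and 132 CPM in no dox, at 75.3, 84.4 and 82.9 CPM in on/off dox and at 52.6, 54.5 and 54.5 CPM in on dox mice. The 3 cohorts did not overlap, and the on/off dox level was 1.80-fold below no dox (log2 fold change -0.85 ± 0.08 (SE), edgeR adjusted p = 7.5e-08). In the ventricle it was at 75.1, 69.7 and 63.5 CPM in no dox, 53.8, 52.2 and 46.1 CPM in on/off dox and 38.0, 41.4 and 40.7 CPM in on dox mice. The ventricular groups did not overlap either, and the log2 fold change of -0.45 ± 0.08 (SE) had an edgeR adjusted p of 0.014 but stayed under the fold threshold. The atrial call was kept in all 18 alternative settings, including 6 that each leave out a library.

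The symbol 2310015A16Rik has no gene in the annotation used here, so that no location or product can be given. In the atria it was at 0.945, 1.03 and 0.835 CPM in no dox, 4.64, 4.32 and 1.95 CPM in on/off dox and 7.61, 5.63 and 5.38 CPM in on dox mice. The cohorts did not overlap, and the rise over no dox was 3.86-fold (log2 fold change 1.95 ± 0.24 (SE), edgeR adjusted p = 3.42e-05). In the ventricle the levels were 4.25, 6.14 and 4.54 CPM in no dox and 8.50, 7.88 and 6.79 CPM in on/off dox mice, again without overlap, and the log2 fold change of 0.63 ± 0.21 (SE) did not pass (adjusted p = 0.404).

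The other lower ventricular calls, Gm10240 and Gm13370, are processed pseudogenes of Rpl21, which encodes a protein of the large ribosomal subunit. Their annotated transcripts are identical, so reads within them cannot tell Gm10240 from Gm13370. Gm10240 lies at chr15:68309819-68310301 and Gm13370 at chr2:24985984-24986466 on GRCm38. Another copy, Gm10163, lies at chr9:88390837-88391317. The annotated transcripts of the 3 copies are identical where they align and differ from Rpl21 (chr5:146832890-146837032) at 2 bases. All of their 31-base words occur in another gene, and 59 other genes share at least 100 such words with Rpl21. The aligned stretch covers 481 bases (Gm10163) or 483 bases (Gm10240 and Gm13370) of an Rpl21 transcript. The 25 bases around each differing position are shown because, within that stretch, they hold all that separates these copies from the functional gene. The differing base is in capitals, from GENCODE transcripts on GRCm38.
Rpl21, position 1: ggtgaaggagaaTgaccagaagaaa
Gm10163, Gm10240 and Gm13370, position 1: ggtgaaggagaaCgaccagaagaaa
Rpl21, position 2: tgtgaggactaaTggaaaagagcct
Gm10163, Gm10240 and Gm13370, position 2: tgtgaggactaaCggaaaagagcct

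Counts of these copies are shares of common reads that the estimation splits, and Gm10240 and Gm13370 had the same count in 36 of 36 libraries. The summed level of the 3 pseudogenes was 33.0, 34.0 and 33.5 CPM in no dox ventricles and 1.1, 1.0 and 1.0 CPM in on/off dox ventricles. In the atria it was 39.8, 39.3 and 34.5 CPM in no dox and 1.2, 1.4 and 8.1 CPM in on/off dox mice. In on dox mice, where the repeat is expressed, the sum was 35.2 to 38.9 CPM in on dox ventricles and 39.3 to 41.3 CPM in on dox atria. Over the whole series the sum was 30.7 to 41.3 CPM in the 30 libraries of the other cohorts and 1.0 to 8.1 CPM in the 6 on/off dox libraries. Rpl21 itself went the other way, from 140, 162 and 152 CPM to 193, 199 and 215 CPM in the ventricle and from 171, 172 and 171 CPM to 225, 253 and 216 CPM in the atria. It was the only gene of the 19231 tested whose 6 on/off dox libraries all lay above the other 30, and no gene had all 6 below. By the same rule the on dox cohort had 8 genes above and 11 below, and the no dox cohort 2 and 2. Added together, Rpl21 and the 3 copies were at 173 to 197 CPM in no dox and 195 to 216 CPM in on/off dox ventricles, and at 205 to 211 CPM in no dox and 224 to 254 CPM in on/off dox atria. The log2 ratio of these group means was then 0.13 (ventricle) and 0.17 (atria), against fitted values of 0.41 and 0.43 for Rpl21 alone, with no test. Which copy the reads came from cannot be told from these counts. Whether the on/off dox libraries were made or quantified differently from the others was not tested. Without the 3 pseudogenes 4 ventricular calls are left. Gm10240 and Gm13370 each lost the ventricular call in 12 of 18 alternative settings, including all 6 that leave out a library. Their call on the mean of both chambers, described below, was lost in 2 of 24.

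**Figure D2:**
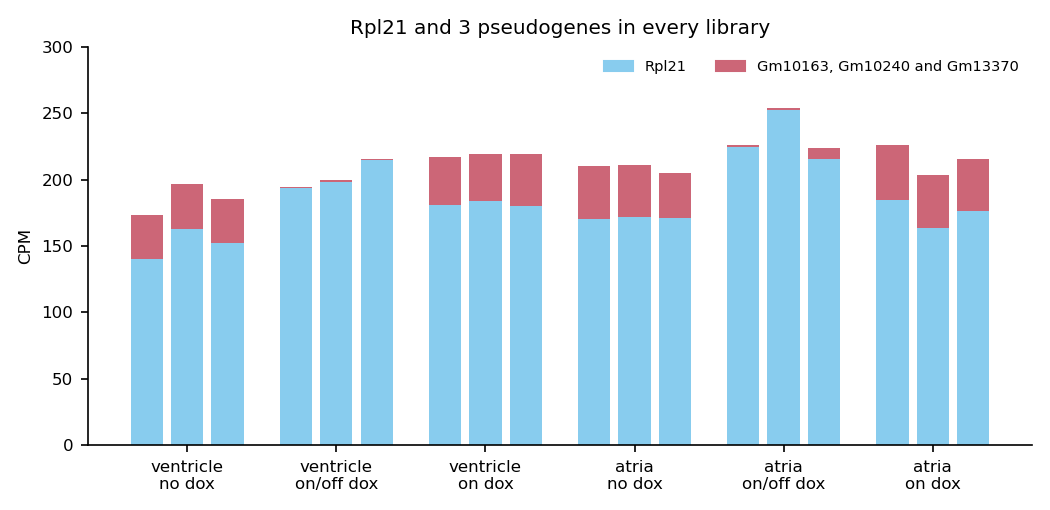
Level (CPM) of Rpl21 (blue) with the summed level of Gm10163, Gm10240 and Gm13370 (red) stacked on it, 1 bar per library. The red part is 33.0 to 41.3 CPM in the no dox and on dox libraries and 1.0 to 8.1 CPM in the 6 on/off dox libraries, where the blue part is taller.

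The chambers were then compared directly. No gene was called in both. All 6 ventricular calls, of which Gm10240 and Gm13370 are the same counts, had the same sign in the atria, and both atrial calls had the same sign in the ventricle. The sign was the same for 62.0% of all genes tested, for 81.7% of those at an unadjusted p below 0.05 in the ventricle and for 80.5% of those at that level in the atria. The difference between the ventricular and the atrial residual was called in 0 genes (0% of those tested) by edgeR, with a smallest adjusted p of 0.943. At an unadjusted p below 0.05 it reached 425 genes (2.21%), and DESeq2 called 2 genes and had 484 at that unadjusted level. Among the called genes, Syn2 differed by 1.37 on the log2 scale (95% interval 0.71 to 2.03) toward the ventricle, 2310015A16Rik by -1.32 (-1.96 to -0.67) and Chd6 by 0.40 (0.17 to 0.62), both with the larger change in the atria, and each had an adjusted p of at least 0.943. These intervals leave out 0 but come from genes chosen for a large residual in 1 chamber, and the missing calls do not show that the chambers act alike.

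Of the genes at an unadjusted p below 0.05 in both chambers, 232 had the same direction, 127 higher and 105 lower in on/off dox, and 11 had opposite directions. The 232 genes are 14.6% of the 1586 ventricular and 25.6% of the 907 atrial genes at that level. On/off dox and no dox libraries did not overlap in both chambers and with the same direction for 486 genes (2.53%) and with opposite directions for 70. Across the 12644 genes with a mean of at least 1 CPM in both chambers the residual log2 fold changes had a Pearson r of 0.51 and a Spearman correlation of 0.42, and across all 19231 genes the Pearson r was 0.13. Genes are not replicates, and these counts and correlations include whatever the chambers of an animal share.

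**Figure D3:**
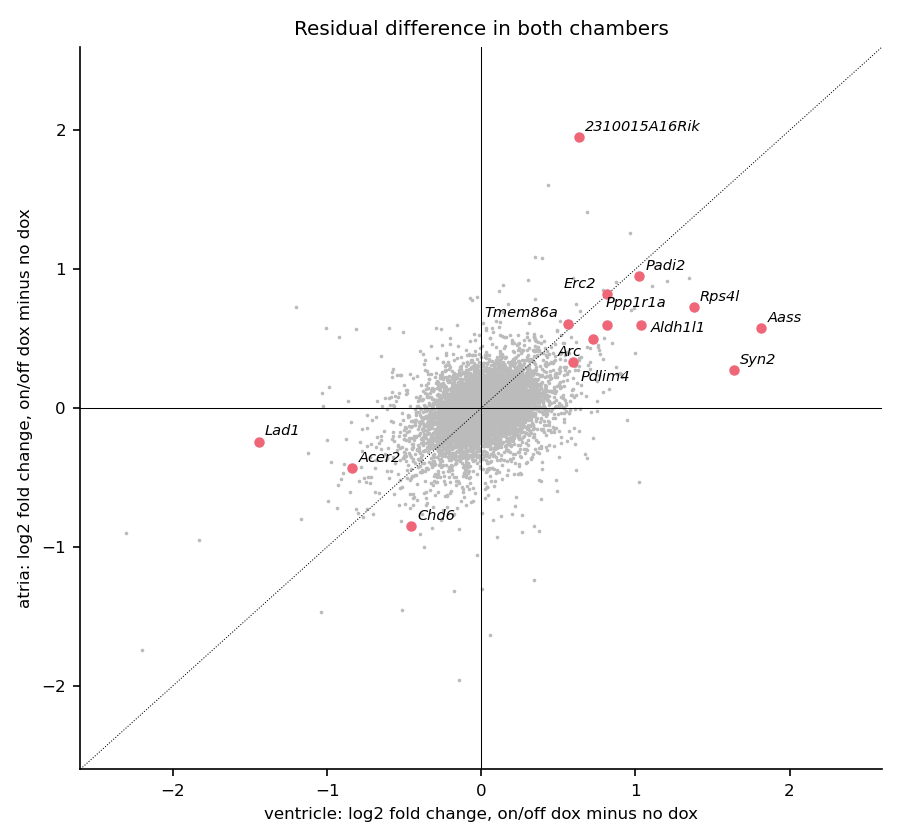
Residual log2 fold change (on/off dox minus no dox) in the ventricle (x) against the atria (y) for 12638 genes with a mean of at least 1 CPM in both chambers; 6 more lie beyond the axes. The 14 pink genes are among those called in a chamber or in the mean of both, and they lie in the lower left or upper right, with Syn2 and Lad1 near the ventricular axis and 2310015A16Rik high on the atrial axis.

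The mean of the ventricular and atrial residuals uses all 12 libraries and called 21 genes (0.109% of those tested), 13 higher (0.0676%) and 8 lower (0.0416%), the 3 Rpl21 pseudogenes among the lower. A call on the mean selects genes with the same direction and separated libraries in both chambers, so that the same sign in all 21 and the lack of overlap in both chambers in 17 describe that choice (62.0% and 2.53% of all genes tested). Of the 21 genes, 14 had been called in neither chamber alone. The 7 others were the single-chamber calls except Pdlim4, whose mean was under the fold threshold. With the replicate number within a cohort as a random block, which allows for chambers that share an animal, 3 genes were called: Chd6, Lad1 and 2310015A16Rik. The same voom model without that block called 12. The edgeR test of the mean has no such block, so its p-values, including those printed below, may be too small. All other calls of the mean were lost with the random block.

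Gucy2e, a guanylate cyclase of photoreceptors, had the largest rise of these 13 genes. It was at 1.80, 1.53 and 1.36 CPM in no dox and 5.73, 5.32 and 3.79 CPM in on/off dox atria, and at 0.119, 0.104 and 0.341 CPM in no dox and 0.516, 1.13 and 0.845 CPM in on/off dox ventricles. Neither chamber's groups overlapped, and the mean rise was 3.77-fold (log2 fold change 1.92 ± 0.29 (SE), edgeR adjusted p = 0.00155). On dox levels were 11.7, 9.91 and 6.17 CPM in the atria and 1.99, 1.75 and 0.737 CPM in the ventricle.

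Ano5, a membrane protein of muscle whose loss causes a limb-girdle muscular dystrophy, was lower. It was at 4.38, 4.42 and 2.33 CPM in no dox and 1.00, 1.15 and 0.731 CPM in on/off dox ventricles, and at 0.768, 0.321 and 0.308 CPM in no dox and 0.0171, 0.0669 and 0.103 CPM in on/off dox atria. The groups did not overlap in either chamber, and the mean fall was 5.21-fold (log2 fold change -2.38 ± 0.43 (SE), edgeR adjusted p = 0.0071). In on dox mice it was at 0.0461 to 0.226 CPM in the ventricle and 0.0417 to 0.0966 CPM in the atria.

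Enzymes and their regulators made up much of the rest. Padi2, which converts arginine in proteins to citrulline, was at 51.5, 50.5 and 29.98 CPM in no dox and 104, 99.95 and 51.4 CPM in on/off dox atria, and rose 1.98-fold in the mean (edgeR adjusted p = 0.0428). An antisense gene, Gm13031, overlaps Padi2. Ppp1r1a, an inhibitor of protein phosphatase 1, was at 1.29, 1.41 and 1.29 CPM in no dox and 2.32, 2.14 and 2.58 CPM in on/off dox ventricles, without overlap. It was at 4.82, 4.42 and 5.82 CPM and 8.06, 6.83 and 7.87 CPM in the same atrial groups, and rose 1.63-fold in the mean (edgeR adjusted p = 0.0148). Aldh1l1, a folate enzyme, rose 1.76-fold in the mean. Acer2, a ceramidase of the Golgi, was at 39.6, 34.0 and 33.0 CPM in no dox and 19.97, 20.8 and 18.9 CPM in on/off dox ventricles and fell 1.55-fold in the mean (edgeR adjusted p = 0.0205).

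For some of the 21 genes the on dox hearts had levels close to no dox. Arc, an activity-regulated cytoskeletal protein best known from neurons, was at 3.16, 3.20 and 3.26 CPM in no dox, 4.71, 6.33 and 4.86 CPM in on/off dox and 3.23, 3.32 and 2.46 CPM in on dox ventricles. Its mean rise over no dox was 1.52-fold (edgeR adjusted p = 0.0156). Tmem86a, a lysoplasmalogenase, was at 35.5, 35.3 and 32.6 CPM in no dox, 49.7, 56.2 and 47.1 CPM in on/off dox and 35.9, 37.1 and 32.5 CPM in on dox ventricles. It passed narrowly in the mean (1.50-fold, edgeR adjusted p = 0.0259) and lost the call in 18 of 25 alternative settings. In both genes every on/off dox ventricle lay above every no dox and every on dox ventricle. Their log2 fold change between on dox and no dox was -0.09 for Arc and 0.03 for Tmem86a in the ventricle, and 0.15 and 0.10 in the atria.

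Other calls of the mean were Erc2, a scaffold of synaptic active zones, Greb1, an estrogen-regulated gene, and Rps4l, a transcribed pseudogene related to ribosomal protein S4 that shares 26.0% of its 31-base words with other genes. They rose 1.76-fold, 1.93-fold and 2.07-fold. Erc2 stood far below its on dox level, with 1.58, 1.28 and 1.14 CPM in on/off dox against 8.71, 8.57 and 6.29 CPM in on dox ventricles and 0.629, 0.712 and 0.947 CPM in no dox ventricles. Erc2, Greb1, Padi2 and Aldh1l1 each lost the call in 12 to 14 of 25 alternative settings, most of them the removal of 1 library. Lad1 lost it in 10 of 25, 9 of them the removal of 1 library, and Acer2 in 8, 6 of them such removals. Chd6 and 2310015A16Rik kept the call in all 25.

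Below the threshold, the genes with the smallest p, at least a 1.5-fold difference and no overlap are given as values. In the ventricle they included Cyfip2, a part of the WAVE actin regulator, at 53.0, 49.5 and 27.9 CPM in no dox and 91.9, 73.1 and 60.4 CPM in on/off dox mice, with an atrial log2 fold change of 0.11 ± 0.23 (SE). Mcf2l, a guanine nucleotide exchange factor, was at 72.5, 62.5 and 78.2 CPM in no dox and 47.2, 44.6 and 40.1 CPM in on/off dox ventricles, and its groups did not overlap in the atria either (log2 fold change -0.43 ± 0.16 (SE)). In the atria Cnnm2, which takes part in magnesium handling, was at 12.9, 12.7 and 15.8 CPM in no dox and 22.9, 20.5 and 19.9 CPM in on/off dox mice, against a ventricular log2 fold change of 0.01 ± 0.13 (SE). Ptgfr, the prostaglandin F receptor, was at 193, 211 and 163 CPM in no dox and 121, 124 and 122 CPM in on/off dox atria. Prlr, the prolactin receptor, was at 4.05, 3.71 and 3.80 CPM in no dox and 0.890, 1.07 and 2.23 CPM in on/off dox atria. None of the 5 passed after adjustment in a single chamber. The other genes this rule named in the ventricle were Rhod and Pstpip1 (higher) and Cdkl1, Gm15543, Lrp11 and Lancl3 (lower). In the atria they included Tmem17 and Stum (higher) and Fam81a and Cacna1s (lower).

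A summary over all repeat-responsive genes was made by scoring each chamber with the genes called between on dox and no dox in the other chamber, so that the libraries scored had not chosen the genes, although other tissue of the same animals had. The score is the mean log2 CPM of the genes higher in on dox minus that of the genes lower, relative to the no dox mean. With the 461 higher and 544 lower genes of the atria, the ventricles scored -0.03, 0.03 and -0.01 in no dox, 0.30, 0.23 and 0.30 in on/off dox and 1.55, 1.45 and 1.40 in on dox mice. The on/off dox mean was 0.27 ± 0.04 (SD, n = 3), and all 3 libraries lay above the 3 no dox libraries and below the 3 on dox libraries. With the 794 higher and 667 lower genes of the ventricle, the atria scored -0.02, 0.07 and -0.05 in no dox, 0.14, 0.12 and 0.22 in on/off dox and 1.35, 1.15 and 1.28 in on dox mice. Here too the 3 cohorts did not overlap, with the lowest on/off dox library at 0.12 and the highest no dox library at 0.07. With log2(TPM + 1) in place of log2 CPM the on/off dox means were 0.15 (ventricle) and 0.11 (atria). What an animal's chambers share therefore also enters the score, and the distance between cohorts is not independent of the choice of genes.

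**Figure D4:**
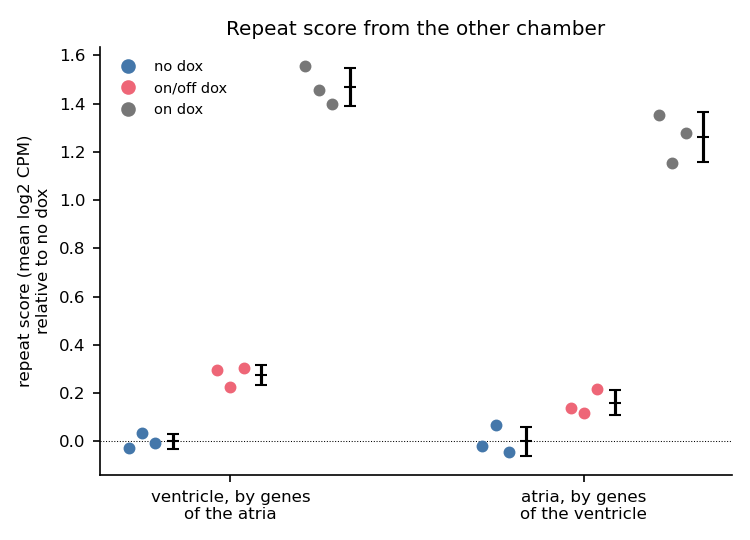
Repeat score of every library (points), computed in each chamber from genes called between on dox and no dox in the other chamber, with the mean and SD of the 3 libraries of a group (black). On/off dox libraries lie at 0.23 to 0.30 in the ventricle and 0.12 to 0.22 in the atria, between no dox (near 0) and on dox (above 1.1).

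The same genes can be counted by gene. Of the 461 genes higher in the on dox atria, 65 were higher (14.1%) and 7 lower (1.52%) in on/off dox than in no dox ventricles at an unadjusted p below 0.05, and their median log2 fold change was 0.11. Of the 544 lower genes, 8 were higher (1.47%) and 49 lower (9.01%), with a median of -0.10. In the atria, the 794 genes higher in the on dox ventricle held 59 higher (7.43%) and 11 lower (1.39%) with a median of 0.06, and the 667 lower genes held 2 higher (0.300%) and 46 lower (6.90%) with a median of -0.06. Over all genes tested, 4.47% were higher and 3.78% lower at that level in the ventricle, and 2.28% and 2.43% in the atria. The median over all genes tested was 0.00 in both chambers. These counts carry the same limit as the score. Other no dox tissue of the same animals helped choose the genes, so the shares are not independent of that choice.

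Recovery cannot be read from a missed threshold, so the intervals were counted. Among genes with a mean of at least 1 CPM, the 95% interval of the residual lay wholly within a 1.5-fold change in either direction for 10355 of 12986 genes in the ventricle (79.7%) and 10617 of 13254 in the atria (80.1%). Over all genes tested these shares were 54.1% and 55.4%, since low counts give wide intervals. For the genes called between on dox and no dox in the other chamber the share was 43.6% of 1005 in the ventricle, and for the atria 44.4% of 1461.

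The genes that the study measured by RT-qPCR are the clearest individual cases. Cdnf, a secreted neurotrophic factor, was at 39.1, 37.0 and 30.6 CPM in no dox, 36.5, 37.4 and 32.4 CPM in on/off dox and 2.76, 2.51 and 2.99 CPM in on dox ventricles. The residual was -0.01 on the log2 scale (95% interval -0.44 to 0.42) in the ventricle and -0.02 (-0.45 to 0.41) in the atria. Ryr2, the calcium release channel of the sarcoplasmic reticulum, was at 2175, 2401 and 2027 CPM in no dox and 2443, 2369 and 2182 CPM in on/off dox ventricles, with a residual of 0.08 (-0.06 to 0.23) in the ventricle and 0.03 (-0.12 to 0.17) in the atria. Its on dox ventricles were at 1060 to 1174 CPM. Asph, a calcium-handling protein of the same membrane, had a residual of -0.02 (-0.19 to 0.16) in the ventricle and 0.01 (-0.16 to 0.19) in the atria. Ckmt2, the mitochondrial creatine kinase of muscle, had 0.02 (-0.21 to 0.25) and -0.14 (-0.37 to 0.09), and Kcna4, a potassium channel of the transient outward current, -0.05 (-0.43 to 0.34) and 0.13 (-0.21 to 0.47). All of these intervals lie within a 1.5-fold change.

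Gja5 and Hcn4, both genes of the conduction system, had atrial intervals that reached beyond a 1.5-fold change. Gja5, which encodes connexin 40, the main gap junction protein of atrial muscle, was at 85.5, 74.9 and 78.8 CPM in no dox, 35.8, 56.1 and 66.5 CPM in on/off dox and 15.3, 14.5 and 18.3 CPM in on dox atria. The cohorts did not overlap, but the residual of -0.59 ± 0.20 (SE) did not pass after adjustment (edgeR adjusted p = 0.784). The 3 on/off dox atria ranged widely, and part of Gja5 overlaps Gpr89 on the opposite strand. In the ventricle, where Gja5 was at 4.27 to 8.14 CPM in both groups, the residual was -0.34 ± 0.22 (SE). Hcn4, the pacemaker channel of the sinoatrial node, was at 15.5, 13.1 and 2.88 CPM in no dox and 2.99, 6.99 and 7.88 CPM in on/off dox atria. The groups overlapped, and its interval (-1.91 to 0.30) allows a large fall or no change. By RT-qPCR in the atria, the study reported incomplete rescue of both Gja5 and Hcn4 after the transgene was turned off.

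The wider set of channels and connexins of the cardiac action potential had 33 genes. In the ventricle 5 were higher and 1 lower at an unadjusted p below 0.05, and in the atria 4 were higher and 2 lower, with medians of 0.01 and 0.09. The higher genes are 15.2% of the list in the ventricle, against 4.47% of all genes tested, and 12.1% in the atria, against 2.28%. In the mean of both chambers 8 were higher (24.2%, against 5.94%) and 3 lower (9.09%, against 5.43%). None was called. In the mean of both chambers Kcnq1, the slow delayed rectifier, passed the adjusted p (0.0401 by edgeR) below the fold threshold. It was at 54.5, 46.0 and 50.1 CPM in no dox and 55.5, 59.4 and 72.6 CPM in on/off dox ventricles, and at 81.9, 76.6 and 74.5 CPM and 88.6, 95.02 and 90.9 CPM in the same atrial groups. Of 16 calcium handling genes none reached an unadjusted p below 0.05 in either chamber, and of the 8 repeat and splicing factors, which include Dmpk and the Mbnl genes, none did either. Mbnl2 was at 288, 307 and 249 CPM in no dox and 264, 263 and 249 CPM in on/off dox ventricles.

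No gene of the growth and metabolism lists was called. At an unadjusted p below 0.05, 3.78% of all genes tested were lower and 4.47% higher in the ventricle, and 2.43% lower and 2.28% higher in the atria. Of 21 genes of the fetal and hypertrophy programme, 1 was lower at an unadjusted p below 0.05 in the ventricle and 0 in the atria. That gene was Nppb, the brain natriuretic peptide, at 40.5, 76.2 and 74.4 CPM in no dox and 38.8, 28.8 and 28.3 CPM in on/off dox ventricles. Of 33 extracellular matrix genes, 1 was lower in the ventricle, and the atria had 2. One of the atrial genes was Ccn2, a matricellular protein, at 252, 482 and 557 CPM in no dox and 207, 181 and 256 CPM in on/off dox atria, where the groups overlapped. Of 25 genes of fatty acid use, the ventricle had 2 lower and the atria 1. Lpl, the lipoprotein lipase, was lower at that level in both, from 3935 to 4343 CPM in no dox to 3238 to 3600 CPM in on/off dox ventricles. Of 18 genes of glucose use, 3 were higher in the ventricle (Hk1, Pygm and Pfkm) by at most 0.20 on the log2 scale, which is 16.7% of the list, and 0 in the atria.

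The integrated stress response adjusts translation and amino acid synthesis under stress. Of its 18 genes tested, 5 were lower (27.8%, against 2.43% of all genes tested) and 0 higher at an unadjusted p below 0.05 in the atria. In the ventricle 1 was higher (5.56%, against 4.47%) and 0 lower. Mthfd2, a mitochondrial folate enzyme, was at 11.3, 10.2 and 2.26 CPM in no dox and 2.04, 2.02 and 2.06 CPM in on/off dox atria, so that no dox replicate 3 already stood near the on/off dox level. Asns, asparagine synthetase, was at 5.19, 6.10 and 3.34 CPM in no dox and 1.39, 1.99 and 2.46 CPM in on/off dox atria. Phgdh, which starts serine synthesis, was at 6.14, 6.84 and 4.57 CPM in no dox and 3.03, 3.24 and 3.46 CPM in on/off dox atria. These 3 genes were also at on dox levels of 1.97 to 3.64 CPM in the atria, and none passed after adjustment (edgeR adjusted p of 0.061 for Mthfd2, 0.204 for Asns and 0.527 for Phgdh).

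Immune and general stress genes were also counted. Of 33 interferon-induced genes and 16 genes of antigen presentation, none reached an unadjusted p below 0.05 in either chamber, although 16 of the antigen presentation genes (ventricle) and 15 (atria) had a log2 fold change above 0 (medians 0.68 and 0.41). Their summed level was 438, 615 and 465 CPM in no dox and 620, 481 and 1127 CPM in on/off dox ventricles, so that on/off dox replicate 3 stood above the rest and the other libraries overlapped. Of 24 immediate early genes 2, of 14 glucocorticoid-induced genes 3 and of 17 heat shock genes 2 were lower in the atria at that level (8.33%, 21.4% and 11.8% of these lists, against 2.43% of all genes tested). In the ventricle 1 heat shock gene was lower (5.88%, against 3.78%). Of 13 genes of the mitochondrial genome, 1 was higher in ventricles (7.69%, against 4.47%) and 2 in atria (15.4%, against 2.28%). Of 23 cell cycle genes none reached that level.

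Genes of the circadian clock, the transcription loop that keeps daily time in each cell, held the largest share of genes at an unadjusted p below 0.05 among the pathway lists examined. Of 20 genes, 5 were higher (25%) and 0 lower at an unadjusted p below 0.05 in the ventricle, against 4.47% and 3.78% of all genes tested. In the atria 5 were higher (25%) and 1 lower (5%), against 2.28% and 2.43%. In the mean of both chambers 9 were higher (45%, against 5.94%) and 1 lower (5%, against 5.43%), and none passed after adjustment. Nr1d1, the repressor Rev-erbα, was at 44.9, 28.6 and 45.0 CPM in no dox and 89.1, 81.9 and 83.8 CPM in on/off dox ventricles. Its atrial levels were 48.7, 33.0 and 65.7 CPM in no dox and 88.8, 86.0 and 96.5 CPM in on/off dox mice. Dbp, an output factor of the clock, was at 58.2, 37.0 and 45.2 CPM in no dox and 111, 92.6 and 75.5 CPM in on/off dox ventricles, and at 75.0, 55.8 and 84.7 CPM and 152, 114 and 89.5 CPM in the atria. On/off dox lay above no dox without overlap in both genes and both chambers. On dox levels of Nr1d1 were 41.2 to 45.7 CPM in the ventricle and 53.3 to 72.4 CPM in the atria, near no dox. Ciart, a repressor of the loop, ranged from 2.27 to 9.38 CPM over the on/off dox ventricles and overlapped with no dox. The time of day of collection is not given in the sources used here, and its part in these values was not tested.

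Clock factors bind the E-box CACGTG, which reads the same on both strands. The promoters of clock genes from 250 bases before to 50 after the start site were searched for it in RefSeq sequences of GRCm38.p6. It was found in 5 of 17 clock genes with a promoter sequence (29.4%) and in 11.1% of 12837 tested genes with one. The Ciart promoter held 3 E-boxes, of which the one farthest from the start site is printed. Those of Ciart, Bhlhe41 and Per1 are shown because these genes had a higher level in on/off dox at an unadjusted p below 0.05 in the atria, 24 bases each on the strand of the gene with the E-box in capitals.
Ciart (chr3:95882330-95882353, minus strand): atctagagtCACGTGttgccggta
Bhlhe41 (chr6:145865559-145865582, minus strand): tacgttccgCACGTGagctgggtg
Per1 (chr11:69098774-69098797, plus strand): acccaagtcCACGTGcagggatgt
Nr1d1 and Dbp were not among the 5, which says only that these letters are not in the windows searched.

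**Figure D5:**
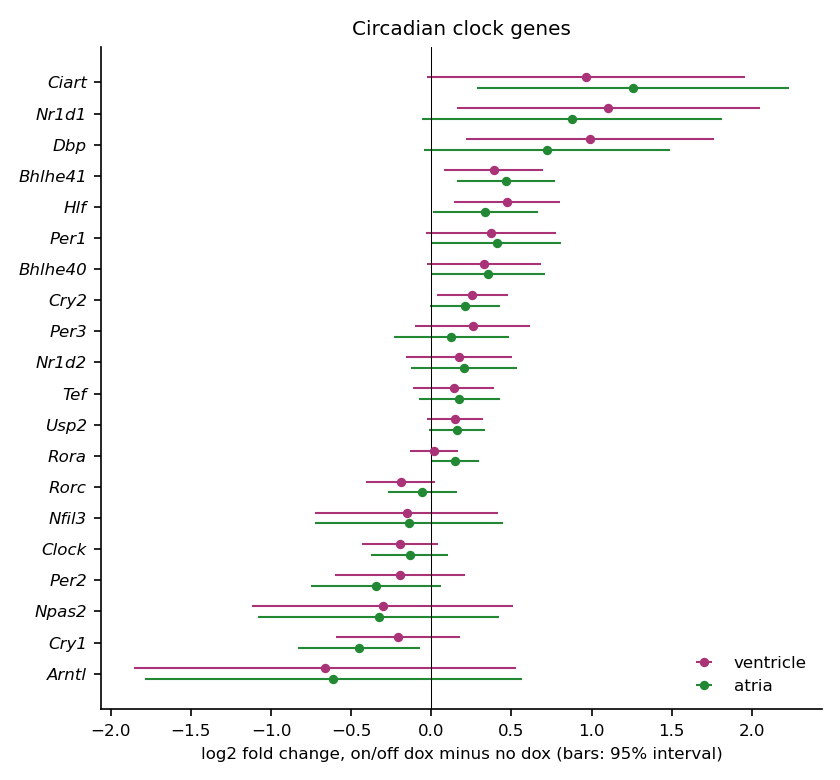
Residual log2 fold change (on/off dox minus no dox) with its 95% interval for 20 clock genes in ventricle and atria, ordered by the mean of both chambers. Ciart, Nr1d1 and Dbp lie farthest to the right in both chambers, and the intervals of Arntl, Npas2 and Nfil3 reach beyond 0 on both sides.

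Cell type markers were examined for a change in tissue make-up, and no marker was called. In the ventricle 4 of 6 fibroblast markers were higher at an unadjusted p below 0.05 (66.7%, against 4.47% of all genes tested), and all 6 had a positive log2 fold change (median 0.30), and in the atria 0 were higher or lower (median 0.01). Their summed level was 2317 to 2627 CPM in no dox and 2992 to 3161 CPM in on/off dox ventricles, and 5798 to 6165 CPM and 5701 to 6078 CPM in the atria. Tcf21, a fibroblast transcription factor, was at 7.44, 6.36 and 6.70 CPM in no dox and 9.13, 8.53 and 9.21 CPM in on/off dox ventricles, without overlap. No fibroblast marker passed after adjustment in a chamber. In bulk tissue, more cells of a type and more RNA in each cell cannot be told apart.

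Of 6 markers of all cardiomyocytes, the ventricle had 2 higher (33.3%) and the atria 1 (16.7%) at an unadjusted p below 0.05. Of all genes tested, 4.47% were higher and 3.78% lower at that level in the ventricle, and 2.28% and 2.43% in the atria. Myh6, the α-myosin heavy chain, was at 29510, 29420 and 33160 CPM in no dox and 36330, 36770 and 37120 CPM in on/off dox ventricles, and its promoter is the one that drives the transactivator. Of 6 endothelial markers, 1 in the ventricle (16.7%) and 2 in the atria (33.3%) were lower at that level. All 6 had a log2 fold change below 0 in both chambers. Emcn, an endothelial sialomucin, was at 73.0, 80.7 and 77.7 CPM in no dox and 62.3, 59.6 and 62.5 CPM in on/off dox atria, and in the mean of both chambers it fell with an edgeR adjusted p of 0.0193, below the fold threshold. All 4 mesothelial markers had a log2 fold change below 0, 1 of them (25%) at that level in each chamber. Their summed level was 102 to 150 CPM in no dox and 47.8 to 107 CPM in on/off dox atria. The 6 white fat markers, none past that level, summed to 3.1 to 39.4 CPM in no dox and 2.6 to 25.6 CPM in on/off dox atria. The markers of lung and thymus did not pass the filter on low counts. Of the other lists, 1 of 9 macrophage markers (11.1%) and 1 of 6 pericyte and smooth muscle markers (16.7%) were lower in the ventricle. Higher were 1 of 6 T cell markers (16.7%) in the ventricle and 1 of 4 brown fat markers (25%) in the atria. Of 7 sinoatrial node markers, 1 was higher (14.3%) and 1 lower (14.3%) in each chamber. The markers of ventricular and atrial cardiomyocytes, B cells, neutrophils, red blood cells, nerve and skeletal muscle had 0 genes at that level. The part of these cell types in the called genes was not tested.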

How the data were processed

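The authors made poly(A)-selected stranded libraries, aligned paired reads with STAR 2.7.10b to mm10 and estimated GENCODE M25 genes with RSEM 1.3.1 (submitters' processing notes and methods). Whether RSEM was run with strand is not given in the sources used here. The deposited expected count values are unnormalized RSEM estimates per symbol, and the deposited TPM values were used in an alternative only. Counts were rounded, filtered with filterByExpr (19231 of 55291 symbols) and tested with the quasi-likelihood test of edgeR 4.0.16 (limma 3.58.1, R 4.3.3), with TMM scaling and robust dispersions, over all 36 libraries with 1 mean for each of 12 groups (24 residual degrees of freedom). The standard error follows from the F statistic. A gene was called at an adjusted p-value below 0.05 (Benjamini-Hochberg) and a fold change of at least 1.5. DESeq2 1.42.0 was an alternative. Library totals of 55.03 M to 78.0 M expected counts leave counting error small for genes above 1 CPM.

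Named genes were every called gene, in each chamber the 10 higher and 10 lower with the smallest p, at least a 1.5-fold difference, a mean of at least 1 CPM and no overlap, the genes of the study's RT-qPCR and up to 4 members of each list. Genes shown for other reasons (Nr1d1, Per1, Timp4, Rpl21) were chosen after their values were seen, and some genes of the rule are not reported here. The members and lists were chosen with earlier results of these data known. Same-numbered no dox and on/off dox libraries deviated together (r of 0.29, 0.13 and 0.49 in the ventricle and 0.27, 0.29 and 0.58 in the atria, over 13046 genes), so the replicate number was tried as a block, but replicates 1 and 2 alone gave r of 0.03 and -0.01. The labels number the libraries as biological replicates. Gene positions came from GENCODE M21 on GRCm38 (96.4% of symbols matched) and promoters from RefSeq. The scripts were tested on simulated data.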

Additional observations from a re-analysis of the deposited data

How the results depend on the processing

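The number of calls moved with most choices. In the ventricle (6 calls) it was 24 with DESeq2, 3 with RLE scaling, 3 with no filter on low counts, 11 with no fold threshold, 10 with the replicate block, 13 with limma-trend on log2(TPM + 1), 0 with only the 18 ventricular libraries, 2 with only the 6 compared and 12 in the first library set alone. The 0 calls of edgeR in the fit of 18 ventricular libraries came with 1039 genes at an unadjusted p below 0.05 and a smallest adjusted p of 0.153. In the atria (2 calls) it was 19 with DESeq2, 4 with no fold threshold, 9 with limma-trend, 9 with only the 18 atrial libraries and 23 in the first set alone, and the block changed no atrial call count. The chamber difference (0 calls) had 2 with DESeq2 and 0 with the block. For the mean of both chambers (21 calls) the number was 48 with DESeq2, 83 with no fold threshold, 9 with limma-trend, 23 with the block, 3 with voom and a random block, and, chosen after seeing the data, 12 with voom without it and 63 in the first set alone. Leaving out 1 library gave 1 to 8 calls in the ventricle, 2 to 4 in the atria, 0 to 1 for the difference and 9 to 26 for the mean. The ventricular cross-chamber score was 0.149 on log2(TPM + 1). No called value changed sign under any alternative run. The causes of these shifts were not tested.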
